A study of Mus musculus with 12 samples.

Results

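The 10 genes described here encode subunits of integrins, the receptors through which cells hold on to matrix and to other cells. They were Itga4, Itga5, Itga6, Itgal, Itgam, Itgax, Itgav, Itgb1, Itgb2 and Itgb7, taken by gene symbol. The genes were chosen with earlier results of these data known, so counts of them set beside all genes are descriptive. Every non-control probe carrying one of these symbols was taken, which gave 18 probes of 32823 with a gene symbol, and the 10 genes were among 13664 genes tested. All 18 probes were well above background on all 12 arrays, and none of their spots was saturated.

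RNA came from RAW264.7 cells, an established mouse macrophage line derived from a virus-induced tumour, so every sample is 1 line in culture. The treatments were 40 mM added NaCl and LPS at 10 ng/ml, alone or together, for 24 h. LPS, or lipopolysaccharide, is a bacterial outer-membrane component sensed through TLR4. The 4 groups, with 3 arrays each, are labelled NS, HS, NS + LPS and HS + LPS, where HS was read from the series title as high salt and NS as the medium without the added salt. The labels do not say that replicates were separate cultures, so p-values cover the spread among the 3 samples of a group, and that spread may be technical only.

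Integrins are heterodimers of an alpha and a beta chain, and a chain reaches the cell surface only with a partner. On leukocytes Itgb2 pairs with Itgal, Itgam or Itgax, and these pairs bind ICAMs, complement fragments and fibrinogen. Itga4 pairs with Itgb1 or Itgb7 and binds VCAM1, fibronectin or MAdCAM1. Itga5 and Itga6 pair with Itgb1 as receptors for fibronectin and laminin, and Itgav pairs with several beta chains to bind vitronectin, osteopontin and other proteins that carry the RGD tripeptide.

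A value below is a probe's signal divided by the 75th percentile of its array, and it has meaning only against the same probe on other arrays. Where a gene had several probes, the brightest one stands for the gene and the others are given beside it. Differences are on the log2 scale with the standard error (SE) of limma's fit, and a gene is called at an adjusted p under 0.05 over all 13664 genes. In a bulk RNA sample, fewer cells of a type and less RNA per cell cannot be told apart.

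Array brightness, given by the 75th percentile, was lowest in HS + LPS at 428 ± 15.3, with 628 ± 6.84 for NS + LPS, 634 ± 21.5 for HS and 725 ± 74.0 for NS (mean ± SD over 3 arrays). All 3 HS + LPS arrays lay on a slide of their own that was scanned on another day, so in each comparison with that group the treatment and the slide cannot be told apart. The NS and HS arrays were on 1 slide together with the first and second NS + LPS replicates, and NS + LPS replicate 3 was on the third of the 3 slides. Of 8 macrophage markers on the array, 7 passed the filter (Csf1r, Cd68, Cd14, Lyz2, Emr1, Ptprc and Fcgr1), and Mertk was above background on no array. Of 25 markers of 8 other cell types on the array, 13 were above background on no array, among them all those of epithelial, NK and mast cells, and 7 passed the filter, Cd4, Cd3e, Kdr and Pecam1 included. The summed level of these 7 ranged from 5.3 to 5.66 across NS arrays, 5.69 to 6.6 across HS, 6.04 to 7.59 across NS + LPS and 6.14 to 6.4 across HS + LPS, with each probe on its own scale. Pecam1 was higher in all 4 comparisons, by 0.66 and 0.67 for salt without and with LPS and by 0.85 and 0.86 for LPS without and with added salt (adjusted p = 0.00344, 0.00188, 0.000237 and 0.000195). Cd3e was higher with salt alone (0.19, adjusted p = 0.0402) and lower in HS + LPS than in NS + LPS (-0.38, adjusted p = 0.000631) or HS (-0.48, adjusted p = 5.29e-05). The part of these markers in the integrin results was not tested.

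Salt moved most of these genes, by amounts that differed from subunit to subunit. Between HS and NS, 9 of 10 were called, 3 higher and 6 lower, against 37.3% of all genes tested (18.3% higher and 19% lower). Itgam is counted as higher by its brightest probe, while its second probe was called lower (-0.45, adjusted p = 0.00011). With LPS present, 9 of 10 were called between HS + LPS and NS + LPS, 4 higher and 5 lower, against 57.6% of all genes (26.2% higher and 31.3% lower). The median log2 difference of the 10 genes was -0.32 without LPS and -0.09 with it, beside 0.02 and -0.04 for all genes. Of the 10 genes, 8 were called in the same direction in both salt comparisons, which have no array in common, against 21.1% of all genes. Replicates did not overlap between the groups for 9 genes without LPS and 10 with LPS, against 50.6% and 64.2% of all genes.

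On the brightest probe of each gene, LPS moved all 10 genes, and 8 of them upward. All 10 were called between NS + LPS and NS, 8 higher and 2 lower, against 64% of all genes (28.7% higher and 35.3% lower). Between HS + LPS and HS the same counts held, against 72.3% of all genes (30.5% higher and 41.8% lower). For LPS without added salt, the second Itgav probe was instead called lower (-0.29, adjusted p = 0.0014). There the second Itgb1 probe was not called (0.11, adjusted p = 0.231). Itga4 and Itgax were the 2 genes that fell in both LPS comparisons. Each of the 10 genes was called in both and in the same direction, against 50.7% of all genes. Replicates did not overlap for any of the 10 genes in either, against 69.8% and 74.9% of all genes. Medians of the 10 genes were 0.54 and 0.94, beside -0.03 and -0.11 for all genes. Cyclic loess normalization moved that last all-gene median to 0.0010, and the calls of the 10 genes were the same under it. A change of at least 2-fold was reached by 5 and 6 members in the 2 LPS comparisons, against 12.1% and 15.1% of all genes, and by 2 members in each salt comparison, against 2.59% and 6.18%.

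**Figure D1:**
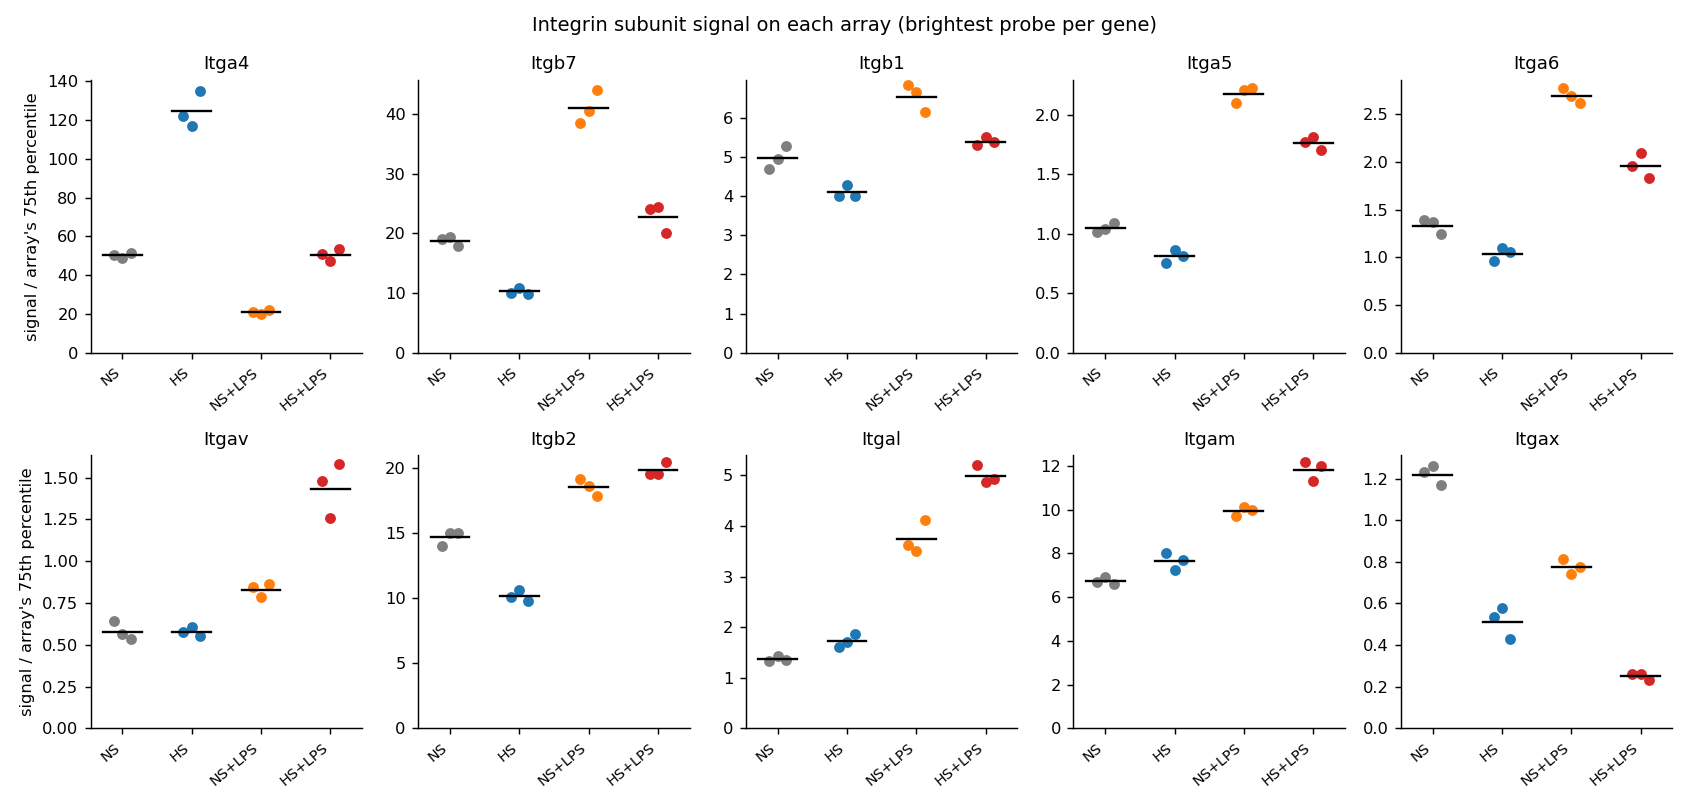
Signal divided by the array's 75th percentile (vertical axis, linear, no unit) for the brightest probe of each of the 10 integrin subunit genes in NS, HS, NS + LPS and HS + LPS. Points are the 3 arrays of a group and the line is their geometric mean; Itga4 is highest in HS, where its arrays lie between 117 and 135, and lowest in NS + LPS, where they lie between 19.7 and 22.

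Itga4, the alpha chain that binds VCAM1, rose with salt and fell with LPS. Its probe (mm9 chromosome 2, 79173193 to 79173252) gave 50.5, 49 and 51.3 in NS and 122, 117 and 135 in HS, with 21.2, 19.7 and 22 in NS + LPS and 50.9, 47.1 and 53.4 in HS + LPS. HS was the highest group and NS + LPS the lowest, a 5.94-fold span, while the HS + LPS arrays overlapped those of NS. Salt raised Itga4 2.47-fold without LPS (log2 difference 1.31, SE 0.0661, adjusted p = 1.22e-06) and 2.41-fold with LPS (1.27, adjusted p = 3.45e-07). LPS lowered it 2.4-fold without added salt (-1.26, adjusted p = 5.19e-08) and 2.47-fold with it (-1.30, adjusted p = 3.87e-08). Of the 10 members, this was the only one that salt raised and LPS lowered in all 4 comparisons.

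A second Itga4 probe tests the same pattern at another place in the mRNA. The deposited coordinates place its 60 bases on mm9 over a span of 1131 bases (chr2:79153985-79155115), so the probe bridges an intron and reads spliced RNA. The Itgb1 probe that stands for its gene also bridges an intron, over 5896 bases (chr8:131250081-131255976). Both probe sequences, as deposited, are shown because they read joined exons.
Itga4 probe A_66_P140103: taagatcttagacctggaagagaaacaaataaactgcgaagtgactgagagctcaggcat
Itgb1 probe A_66_P113059: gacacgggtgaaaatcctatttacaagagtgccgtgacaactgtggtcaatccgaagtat
The junction probe of Itga4 gave 1.28, 1.02 and 0.879 in NS and 2.97, 2.6 and 2.86 in HS, with 0.559, 0.484 and 0.615 in NS + LPS and 1.3, 1.34 and 1.31 in HS + LPS. Its log2 differences were 1.42 and 1.26 for salt and -0.93 and -1.09 for LPS, the same directions as the brightest probe, and all 4 were called in the fit over probes.

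Itgb7, the beta chain that makes a gut-homing receptor with Itga4, moved the opposite way. Its probe (mm9 chromosome 15, 102046450 to 102046509) gave 19.1, 19.3 and 17.8 in NS and 10, 10.9 and 9.88 in HS, with 38.4, 40.5 and 44 in NS + LPS and 24, 24.4 and 20.1 in HS + LPS. No pair of groups overlapped, and NS + LPS stood 3.99-fold above HS. Salt lowered Itgb7 1.82-fold without LPS (-0.87, SE 0.0812, adjusted p = 3.05e-05) and 1.8-fold with it (-0.85, adjusted p = 1.55e-05). LPS raised it 2.18-fold (1.13, adjusted p = 6.25e-07) and 2.22-fold (1.15, adjusted p = 4.57e-07).

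Itgb1, the most widely shared beta chain, moved in the direction of Itgb7 but by less. Its values were 4.69, 4.95 and 5.28 in NS and 4.02, 4.3 and 4.01 in HS, with 6.84, 6.67 and 6.16 in NS + LPS and 5.3, 5.51 and 5.38 in HS + LPS. The 4 groups did not overlap, and the span of 1.6-fold was the smallest among the 10 genes. Salt lowered Itgb1 by a log2 difference of -0.28 in both settings (adjusted p = 0.00358 without LPS and 0.00185 with it), and LPS raised it 1.32-fold and 1.31-fold (adjusted p = 0.000104 and 9.83e-05). A second Itgb1 probe, A_52_P351816, also fell with salt without LPS (-0.36, adjusted p = 0.00485) and rose with LPS in high salt (0.32, adjusted p = 0.00328), while its values for salt with LPS (-0.15, adjusted p = 0.121) and for LPS without added salt (0.11, adjusted p = 0.231) were not called.

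Promoters of Itga4 and Itgb7, the partners that moved apart, are shown with those of Itgam and Itgax, which neighbour each other on chromosome 7. On the brightest probes Itgam and Itgax also moved apart. For salt without LPS the second Itgam probe instead fell (-0.45, adjusted p = 0.00011), as Itgax did. RefSeq's table on GRCm38.p6 held 7 of the 10 genes, Itga6, Itgal and Itgb2 not among them. Each sequence is the 250 bases before the annotated start on the gene's own strand, and capitals mark GAGGAA or its reverse complement TTCCTC, the core letters bound by PU.1, a transcription factor of the myeloid lineage.
Itga4, chr2:79255176-79255425, plus strand: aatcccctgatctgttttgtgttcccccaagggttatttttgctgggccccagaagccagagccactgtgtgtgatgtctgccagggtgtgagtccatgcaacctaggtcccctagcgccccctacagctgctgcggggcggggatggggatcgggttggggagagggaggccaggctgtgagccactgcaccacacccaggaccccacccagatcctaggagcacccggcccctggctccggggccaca
Itgb7, chr15:102231936-102232185, minus strand: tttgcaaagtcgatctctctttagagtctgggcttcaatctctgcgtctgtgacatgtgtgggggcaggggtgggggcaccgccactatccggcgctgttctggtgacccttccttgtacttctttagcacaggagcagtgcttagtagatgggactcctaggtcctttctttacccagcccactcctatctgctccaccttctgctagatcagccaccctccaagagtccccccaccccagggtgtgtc
Itgam, chr7:128062390-128062639, plus strand: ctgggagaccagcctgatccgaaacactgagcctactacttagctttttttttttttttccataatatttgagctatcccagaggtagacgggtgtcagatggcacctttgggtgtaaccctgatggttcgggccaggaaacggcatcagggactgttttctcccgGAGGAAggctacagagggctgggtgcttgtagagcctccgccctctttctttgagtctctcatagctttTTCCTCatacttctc
Itgax, chr7:128129300-128129549, plus strand: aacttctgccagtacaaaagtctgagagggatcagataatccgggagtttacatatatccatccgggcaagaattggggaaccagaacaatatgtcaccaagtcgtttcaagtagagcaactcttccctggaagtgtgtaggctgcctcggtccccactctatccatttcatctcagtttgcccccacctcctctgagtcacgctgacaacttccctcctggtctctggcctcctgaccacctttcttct
Searched on both strands, GAGGAA was present 2 times in the window of Itgam and 2 times in that of Itgav, once each in those of Itgb1 and Itga5, and not in those of Itga4, Itgb7 and Itgax. It occurred in 23.3% of 32851 RefSeq promoters of the same length. The letters TGGAAA of the NFAT core were present in Itgam, Itgb1 and Itga5, against 18.6% of promoters. The AP-1 letters TGANTCA, where N is any base, were in the window of Itgax alone, against 6.75%, and the SP1 letters GGGCGG in those of Itga4, Itgam, Itgb1 and Itga5, against 32.7%. Matches of different motifs did not overlap in these windows. A match is a run of letters and not a site shown to be bound.

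Itga5, the fibronectin receptor's alpha chain, was lowered by salt and raised by LPS. Values were 1.01, 1.04 and 1.09 in NS and 0.752, 0.865 and 0.812 in HS, with 2.1, 2.21 and 2.22 in NS + LPS and 1.77, 1.81 and 1.7 in HS + LPS. No groups overlapped. The log2 difference for salt was -0.37 without LPS (SE 0.0552, adjusted p = 0.000538) and -0.31 with it (adjusted p = 0.000998), and LPS raised Itga5 2.08-fold and 2.18-fold (adjusted p = 5.21e-08 and 3.06e-08). Its probe lies at mm9 chromosome 15, 103175022 to 103175081.

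Itga6, the laminin receptor's alpha chain, had the same order of groups. Its probe (mm9 chromosome 2, 71694756 to 71694815) gave 1.39, 1.37 and 1.24 in NS and 0.96, 1.1 and 1.06 in HS, with 2.77, 2.69 and 2.62 in NS + LPS and 1.96, 2.09 and 1.83 in HS + LPS. Salt lowered it in both settings, by log2 differences of -0.36 (SE 0.069, adjusted p = 0.00249) and -0.46 (adjusted p = 0.00031), and LPS raised it 2.02-fold and 1.89-fold (adjusted p = 4.05e-07 and 7.48e-07). The 4 groups were separate on this probe. A second Itga6 probe, A_55_P1958840, rose with LPS by 2.57 without added salt (adjusted p = 1.61e-07) and 1.97 with it (adjusted p = 1.11e-06). On that probe salt gave -0.22 without LPS, which was not called (adjusted p = 0.298), and -0.83 with LPS (adjusted p = 0.0013). On their brightest probes, Itga5, Itga6, Itgb1 and Itgb7 thus shared 1 order of groups, NS + LPS over HS + LPS over NS over HS. The second Itgb1 probe had NS (mean 1.02) above HS + LPS (0.989), and the arrays of these groups overlapped.

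Itgb2, the common beta chain of the leukocyte integrins, was lowered by salt without LPS, and its salt difference in cells given LPS did not pass the threshold. Its probe (mm9 chromosome 10, 77027978 to 77028037) gave 14, 15 and 15 in NS and 10.1, 10.6 and 9.73 in HS, with 19.1, 18.6 and 17.8 in NS + LPS and 19.5, 19.5 and 20.4 in HS + LPS. The fall with salt alone was 1.45-fold (-0.53, SE 0.0479, adjusted p = 2.42e-05). With LPS the difference between salt conditions was 0.10 (adjusted p = 0.108) although the arrays did not overlap, and normexp background correction turned its sign (-0.0058). LPS raised Itgb2 1.26-fold without added salt (0.34, adjusted p = 0.000119) and 1.95-fold with it (0.97, adjusted p = 3.19e-08).

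Itgal, which makes the ICAM receptor LFA-1 with Itgb2, rose with both treatments. Its probe (mm9 chromosome 7, 134477160 to 134477219) gave 1.33, 1.42 and 1.36 in NS and 1.6, 1.7 and 1.86 in HS, with 3.63, 3.5 and 4.12 in NS + LPS and 5.2, 4.86 and 4.92 in HS + LPS. Groups did not overlap, and HS + LPS stood 3.64-fold above NS. Salt raised Itgal by 0.32 (SE 0.0718, adjusted p = 0.00563) and 0.42 (adjusted p = 0.000749), and LPS raised it 2.73-fold (1.45, adjusted p = 3.38e-08) and 2.91-fold (1.54, adjusted p = 2.03e-08). Its other probes were higher with LPS too, at 1.5 and 1.60 for A_55_P2184601 and 1.29 and 1.15 for A_55_P2184606. For salt they gave 0.38 and 0.48, and 0.42 and 0.27, the last of these not called (adjusted p = 0.0837).

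Itgax, the CD11c chain used as a marker of dendritic cells and of some tissue macrophages, was the one member lowered by both treatments. Its probe (mm9 chromosome 7, 135294052 to 135294111) gave 1.23, 1.26 and 1.17 in NS and 0.537, 0.577 and 0.431 in HS, with 0.815, 0.741 and 0.773 in NS + LPS and 0.262, 0.259 and 0.234 in HS + LPS. The groups were separate in the order NS, NS + LPS, HS and HS + LPS, a span of 4.85-fold. Salt lowered it 2.38-fold without LPS (-1.25, SE 0.0971, adjusted p = 1.02e-05) and 3.09-fold with LPS (-1.63, adjusted p = 7.37e-07). Under normexp background correction the salt differences were -1.11 and -1.13 (adjusted p = 3.63e-07 and 1.13e-07). LPS lowered it 1.57-fold (-0.65, adjusted p = 0.000162) and, in high salt, 2.03-fold (-1.02, adjusted p = 4.42e-06). With normexp background correction these were -0.59 and -0.60 (adjusted p = 1.54e-05 and 9.89e-06). The dendritic cell markers Flt3, Zbtb46 and Xcr1 did not pass the filter.

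**Figure D2:**
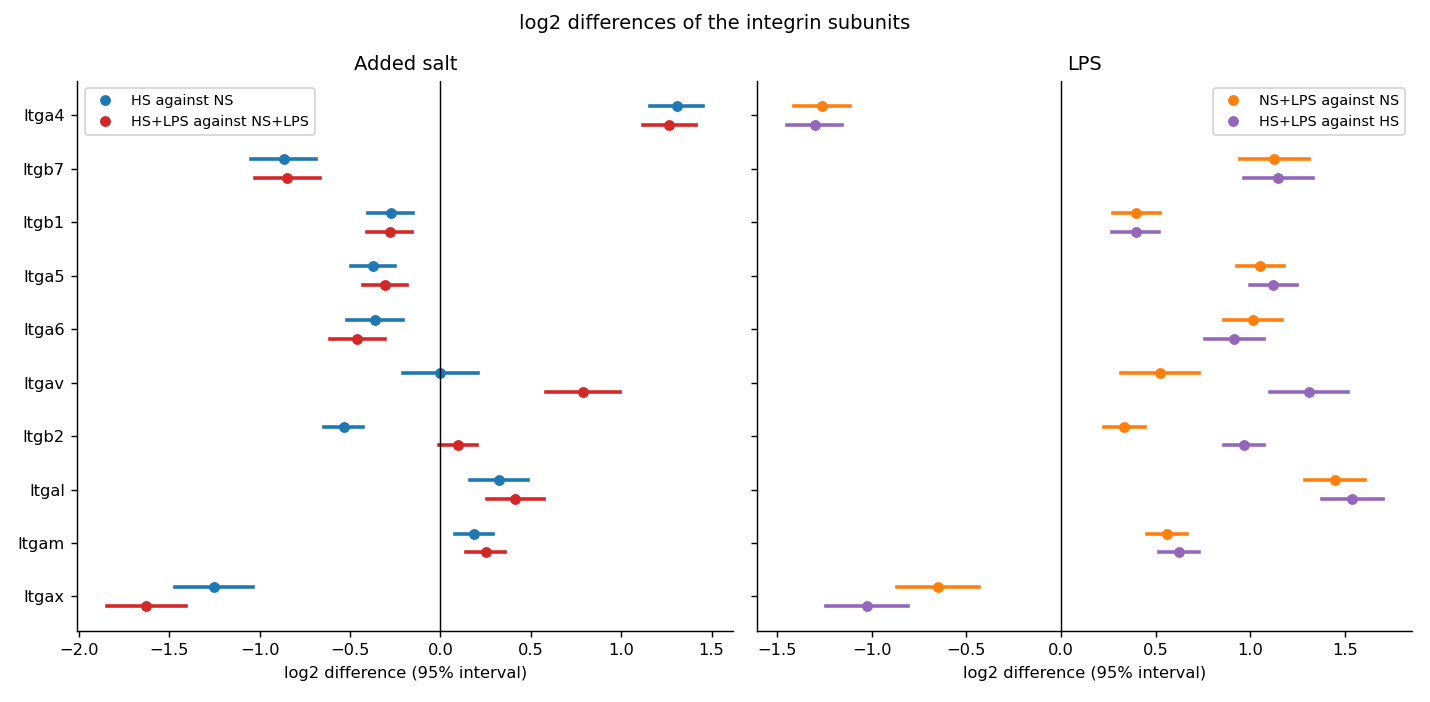
Log2 differences (horizontal axis) of the 10 integrin subunit genes, for salt on the left, without LPS (HS against NS) and with it (HS + LPS against NS + LPS), and for LPS on the right, without added salt and with it. Points are limma estimates and bars are 95% intervals; Itga4 lies to the right for salt (1.31 and 1.27) and to the left for LPS (-1.26 and -1.30), while Itgb7 lies the other way in both.

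Itgam, the CD11b chain that forms complement receptor CR3 with Itgb2, rose with LPS on all 3 of its probes, but for salt without LPS its probes disagreed. The brightest probe (mm9 chromosome 7, 135261755 to 135261814) gave 6.69, 6.92 and 6.59 in NS and 8.03, 7.26 and 7.71 in HS, with 9.71, 10.1 and 9.97 in NS + LPS and 12.2, 11.3 and 12 in HS + LPS. It was raised by salt, by 0.19 (SE 0.0478, adjusted p = 0.0119) and 0.25 with LPS (adjusted p = 0.00139), and by LPS, 1.47-fold and 1.54-fold (adjusted p = 2.3e-06 and 8.5e-07). These groups did not overlap.

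The second Itgam probe, A_55_P1977929 (135260275 to 135260334 on the same chromosome), fell with salt when LPS was absent. It gave 2.41, 2.44 and 2.52 in NS and 1.72, 1.81 and 1.89 in HS, with 5.87, 5.63 and 5.34 in NS + LPS and 7.33, 7.57 and 7.12 in HS + LPS. Salt changed it by -0.45 without LPS (adjusted p = 0.00011 over 18612 probes) and by 0.39 with LPS (adjusted p = 0.000128), and LPS raised it by 1.19 and 2.02 (adjusted p = 1.01e-08 and 2.06e-10). The third, A_55_P1977926 (135212140 to 135212199), gave -0.27 and 0.23 for salt, neither called (adjusted p = 0.178 and 0.203), and rose with LPS by 0.83 and 1.32 (adjusted p = 0.000465 and 1.22e-05). Both directions of the first and second probes for salt without LPS held under all 5 scalings of the arrays. The mean of the 3 probes, taken as an alternative, turned the Itgam salt difference without LPS to -0.18 (adjusted p = 0.0407).

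Itgav, the alpha chain of the vitronectin receptors, had the largest interaction of salt and LPS among the 10 genes. Its brightest probe (mm9 chromosome 2, 83643905 to 83643964) gave 0.644, 0.564 and 0.532 in NS and 0.577, 0.604 and 0.555 in HS, with 0.843, 0.786 and 0.862 in NS + LPS and 1.48, 1.26 and 1.58 in HS + LPS. NS and HS overlapped, with a log2 difference of 8e-04 (SE 0.0927, adjusted p = 0.996), whereas with LPS salt raised Itgav 1.73-fold (0.79, adjusted p = 6.09e-05). LPS raised it 1.44-fold without added salt (0.52, adjusted p = 0.000563) and 2.48-fold with it (1.31, adjusted p = 4.63e-07).

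The second Itgav probe, A_51_P382484 (83646133 to 83646192 on chromosome 2), went the other way for LPS alone. It gave 0.66, 0.655 and 0.666 in NS and 0.569, 0.557 and 0.549 in HS, with 0.538, 0.54 and 0.537 in NS + LPS and 0.985, 0.813 and 0.893 in HS + LPS. On this probe LPS without added salt gave -0.29 (adjusted p = 0.0014) and salt without LPS -0.24 (adjusted p = 0.0104), while HS + LPS exceeded NS + LPS by 0.73 (adjusted p = 5.84e-06) and HS by 0.68 (adjusted p = 2.47e-06). HS + LPS was the highest group on both Itgav probes. With the probes averaged, the LPS difference without added salt was 0.11 and no longer called (adjusted p = 0.165). Among 3954 genes with several probes, 0.961% had probes called in opposite directions for salt without LPS and 10.8% for LPS without added salt. Of the 6 members with several probes, 1 did so in each, Itgam and Itgav.

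**Figure D3:**
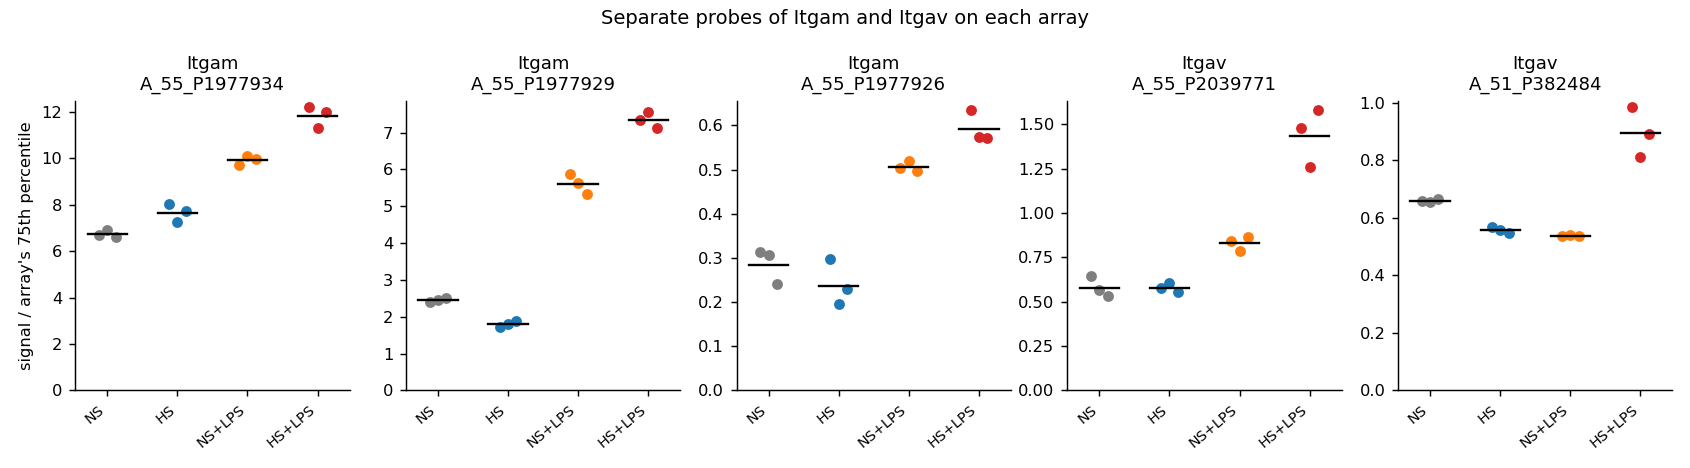
Signal divided by the array's 75th percentile (vertical axis) for the 3 Itgam probes and the 2 Itgav probes in the 4 groups, each point 1 array and each line a geometric mean. From NS to HS the brightest Itgam probe is higher (8.03, 7.26 and 7.71 in HS) and the second is lower (1.72, 1.81 and 1.89), and both Itgav probes are highest in HS + LPS.

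Whether the salt difference itself depended on LPS was tested as an interaction, the salt difference with LPS minus that without. It was called for 2 of 10 genes, Itgav and Itgb2, both positive, against 36.3% of all genes tested (17.5% positive and 18.8% negative). Of all genes called, 48.1% were positive, and 58.4% were when the deposited values replaced the scanner values. Since the HS + LPS arrays have their own slide, the interaction and that slide cannot be told apart. For Itgav it was 0.79 (SE 0.131, adjusted p = 0.00144), with a 95% interval of 0.50 to 1.08, and for Itgb2 0.63 (SE 0.0677, adjusted p = 0.000118), with an interval of 0.48 to 0.78. None of the 10 estimates reached 2-fold, which 4.42% of all genes did with a call.

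On the brightest probes of Itga4, Itga5, Itga6, Itgal, Itgam, Itgb1 and Itgb7 the estimates lay between -0.10 and 0.09, with adjusted p between 0.46 and 0.966. The interval of Itga4 ran from -0.25 to 0.17 and that of Itgb7 from -0.23 to 0.28. Such intervals cover only the spread among arrays of a group. They set no limit on a missed dependence, because the HS + LPS arrays have their own slide. Itgax, at -0.37 (interval -0.68 to -0.07), missed the threshold with an adjusted p of 0.0575. Its size depended on the processing: it was -0.02 with normexp background correction (adjusted p = 0.912) and -0.31 with the deposited values (adjusted p = 0.0971), and was called with quantile normalization (-0.40, adjusted p = 0.0437) and without HS replicate 3 (-0.50, adjusted p = 0.00391). At single probes, A_51_P382484 of Itgav gave 0.98 (adjusted p = 4.16e-05) and A_55_P1977929 of Itgam 0.83 (adjusted p = 4e-05). The third Itgam probe gave 0.49, not called (adjusted p = 0.0845), and was called under 3 of the 5 scalings. The second Itga6 probe gave -0.61, not called (adjusted p = 0.0571), and was called with normexp (-0.68, adjusted p = 0.00277).

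**Figure D4:**
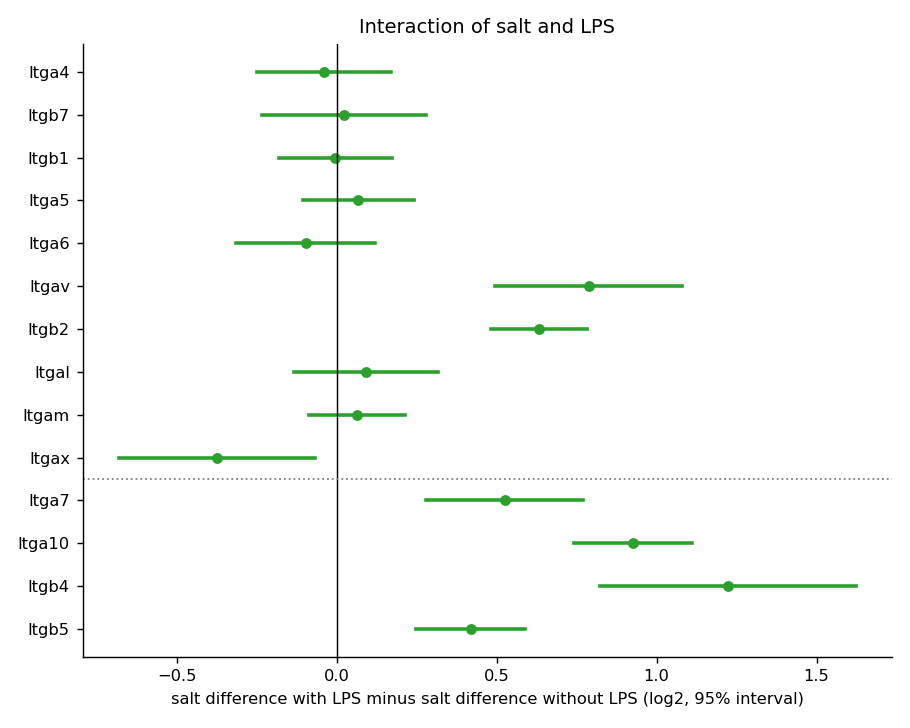
Interaction of salt and LPS (horizontal axis, log2, the salt difference with LPS minus that without) for the 10 integrin subunit genes above the dotted line and for Itga7, Itga10, Itgb4 and Itgb5 below it. Points are limma estimates and bars 95% intervals; the intervals of Itgav (0.50 to 1.08), Itgb2 (0.48 to 0.78), Itgax (-0.68 to -0.07) and the 4 genes below the line do not cross 0.

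Most of the remaining integrin subunits were not detected on these arrays. Of 17 further subunit genes, 11 were above background on no array, Itgb3, Itgb6, Itgb8 and Itgae among them, and 4 passed the filter. Itgb3, Itgb6 and Itgb8 are beta chains that pair with Itgav, and Itgae is an alpha chain that pairs with Itgb7. Itgb5, a partner of Itgav, had a mean of 12.6 in NS and 13.1 in HS, and of 5.32 in NS + LPS and 7.41 in HS + LPS. It fell 2.37-fold with LPS without added salt (-1.25, adjusted p = 1.2e-08), where the brightest Itgav probe rose and the second fell. Itga7, a laminin receptor chain, averaged 5.62, 2.96, 9.1 and 6.89 in the same order of groups and fell with salt in both settings (-0.93 and -0.40, adjusted p = 1.59e-05 and 0.00148). Itga10 and Itgb4 were higher in HS + LPS than in NS + LPS (0.89 and 0.84, adjusted p = 1.42e-06 and 0.000306). In all, 0 of the 4 rose and 2 fell with salt alone, 3 rose and 1 fell with salt in LPS, 1 rose and 3 fell with LPS alone, 3 rose and 1 fell with LPS in high salt, and all 4 had a positive interaction. Among all genes, 18.3% rose and 19% fell with salt alone, and 26.2% and 31.3% with salt in LPS. For LPS alone these shares were 28.7% and 35.3%, for LPS in high salt 30.5% and 41.8%, and 17.5% had a positive interaction.

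Fewer ligand genes passed the filter than did not. Of 42 on the array 16 passed, and 18 were above background on no array, among them Vcam1, Fn1 and Vtn, ligands of Itga4, Itga5 and Itgav. Of the 16, 7 rose and 3 fell with salt alone, 8 rose and 5 fell with salt in LPS, 7 rose and 5 fell with LPS alone, and 8 rose and 6 fell with LPS in high salt. Among all genes 18.3% rose and 19% fell in the first comparison, 26.2% and 31.3% in the second, 28.7% and 35.3% in the third, and 30.5% and 41.8% in the fourth. Spp1, which encodes osteopontin, a ligand of Itgav and Itga4, averaged 20.1 in NS and 29.5 in HS, but 234 in NS + LPS and 351 in HS + LPS. LPS raised Spp1 11.6-fold (3.54, adjusted p = 1.73e-10) and salt raised it 1.47-fold (0.56, adjusted p = 0.000695).

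Other ligands also changed with salt or with LPS. Jam2, a junctional adhesion molecule bound by Itga4 with Itgb1, rose with salt alone (0.86, adjusted p = 7.68e-05). Jam3, which binds the Itgam receptor, was above background on all 3 NS arrays and on no array of the other groups. It was at least 1.64-fold lower in HS and at least 1.55-fold lower in NS + LPS than in NS. Since Jam3 passed the filter through NS alone, the filter favoured these falls, and their p-values are not given. Icam5, a ligand of Itgal, rose with salt in LPS (1.37, adjusted p = 2.09e-07) and with LPS in high salt (1.51, adjusted p = 1.18e-08). Mfge8, a bridge between Itgav and dying cells, rose with salt in LPS (0.79, adjusted p = 7.01e-06). Lamb2, a laminin chain, rose by 1.08 in that comparison (adjusted p = 8.15e-06) and fell with LPS alone (-1.23, adjusted p = 1.01e-06). C3, whose fragment iC3b is bound by the Itgam and Itgax receptors, fell with LPS in high salt (-1.45, adjusted p = 1.34e-07).

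Among genes for proteins that activate integrins or build adhesions behind them, more fell than rose with salt alone. Of 63 tested, 7 rose and 24 fell between HS and NS, with a median of -0.06, against 18.3% and 19% of all genes. With LPS present 27 rose and 19 fell with salt (median 0.07), against 26.2% and 31.3% of all genes. With LPS 27 rose and 20 fell without added salt (median 0.10), against 28.7% and 35.3%, and 39 rose and 14 fell with it (median 0.26), against 30.5% and 41.8%. Lims2, an adaptor of the integrin-linked kinase complex, fell with salt (-1.65, adjusted p = 6.17e-07) and rose with LPS by 1.99 (adjusted p = 1.11e-09) and, in high salt, by 2.92 (adjusted p = 6.26e-11). Rasgrp2, the exchange factor that activates Rap1 upstream of talin, rose with salt by 1.32 and 1.10 (adjusted p = 4.02e-05 and 6.07e-05). Dab2, an endocytic adaptor of integrins, fell with salt by 1.24 and 1.21 on the log2 scale (adjusted p = 8.26e-06 and 3.35e-06).

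In the same set, the largest changes with LPS were in Plaur and Lims2. Plaur, the urokinase receptor, a surface partner of integrins, averaged 17.6 in NS and 124 in NS + LPS and rose 7.02-fold (2.81, adjusted p = 4.01e-12) and, in high salt, 7.11-fold (2.83, adjusted p = 3.93e-12). Bcar1, the focal adhesion scaffold p130Cas, rose by 1.75 and 1.89 (adjusted p = 2.11e-07 and 1.03e-07). Rapgef3, an exchange factor for Rap1 that responds to cyclic AMP, was above background in none of the NS + LPS arrays and was 3.85-fold higher in HS + LPS (adjusted p = 1.73e-06). The interaction was positive for 25 of the 63 genes and negative for 5, against 17.5% and 18.8% of all genes. The share of positive calls over all genes was higher with the deposited values, as given above for the members.

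Macrophage identity genes did not move in 1 direction with either treatment. Of 7 tested, 1 rose and 2 fell with salt alone (Cd14 0.37, Emr1 -0.42 and Cd68 -0.29, adjusted p = 0.00015, 9.38e-05 and 0.00113). With LPS present 3 rose and 3 fell with salt, among them Csf1r (0.60, adjusted p = 8.68e-05), Emr1 (-0.51, adjusted p = 1.32e-05) and Fcgr1 (-1.42, adjusted p = 7.21e-08). LPS alone raised 4 and lowered 3, with Fcgr1 at 2.06, Cd14 at 1.02 and Ptprc at 0.69 (adjusted p = 3.28e-10, 1.2e-08 and 0.000151), and in high salt 4 rose and 2 fell, with Lyz2 at 0.92, Cd14 at 0.84 and Ptprc at 0.80 (adjusted p = 2.85e-06, 5.21e-08 and 4.04e-05). Among all genes, 18.3% rose and 19% fell with salt alone, and 26.2% and 31.3% with salt in LPS. With LPS the shares were 28.7% and 35.3% without added salt and 30.5% and 41.8% with it. The summed level of the 7 macrophage genes ranged from 807 to 846 across NS arrays, 815 to 908 across HS, 837 to 881 across NS + LPS and 1020 to 1070 across HS + LPS, and its part in the integrin results was not tested.

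Over the 4 groups, the genes most like the members with the largest differences were found by the Euclidean distance between their 3 log2 differences from NS, among 11993 genes above background on all 12 arrays. Closest to Itgax, which stood at -1.25 for HS, -0.65 for NS + LPS and -2.28 for HS + LPS, were Dab2 (distance 0.309), Col7a1 (0.426) and Slc22a15 (0.531). Closest to Itgal, at 0.32, 1.45 and 1.86, were Nucb2 (0.154), Cd74 (0.169), the invariant chain of MHC class II, and Rilpl2 (0.2). Cd74 stood at 0.33, 1.29 and 1.81 in the same order.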

How the data were processed

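RNA from 12 samples of RAW264.7 cells, 3 in each of 4 groups, was hybridised to 1-colour arrays (design 028005, 62976 spots), with groups taken from the sample titles. Per the file headers, the processed signal is a linear intensity, background subtracted and detrended within the array by Agilent Feature Extraction 10.7.3.1. Flags in the scanner files (0 or 1 for each spot, per the file headers) mark outliers, saturated spots and spots over background. The deposited value table, also a linear intensity, had a median of about 28.8 on every array and appears quantile normalized, which is inferred from its values.

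From the scanner files, log2 signal minus log2 of the array's 75th percentile over 59305 non-control spots was computed. Outlier spots were left out (10 probes lost), and repeated spots averaged, to 55681 probes. Probes entered the fit if at least 1 group had all 3 arrays well above background, and 13664 genes were each represented by their brightest probe. All 12 arrays were fitted with limma 3.58.1 in R 4.3.3 (2-sided moderated tests, Benjamini-Hochberg over all genes), and members' probes in a like fit of 18612 probes. Correlations between replicates of a group were 0.985 to 0.994. The number of arrays limits the precision. A fold against a group below background was set against the lowest signal among probes well above background. For Jam3 this gives a lower bound. The Rapgef3 signal lay above that lowest signal, so its fold is the plain estimate.

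Members and lists were chosen with earlier results of these data known. All 10 members are named. From each list, up to 3 called genes with the largest difference are named for the salt comparisons and the LPS comparisons, not for the interaction, and for the 2 members with the largest differences the 3 genes nearest in pattern. Vcam1, Fn1 and Vtn, the markers shown as a check, and the untested subunits were named outside that rule. The fit was tested on simulated data. Alternatives were normexp background correction (offset 50), quantile and cyclic loess normalization, the deposited value table, no filter, a filter requiring all 12 arrays, averaging the probes of a gene, replicate number or slide as a block, arrays of the shared slide only, and each array left out in turn. Tables were read with data.table (version 1.17.8), blocks fitted with statmod 1.5.0, and figures drawn with matplotlib 3.10.9, pandas 2.3.3 and numpy 2.4.6 in Python 3.11.15.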

Additional observations from a re-analysis of the deposited data

Results flagged for a closer look

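The salt difference in cells given LPS departed from that in cells without LPS, by limma's test of the interaction adjusted over all genes or probes tested, for 2 of the 10 integrin subunit genes. Among all genes tested, 36.3% were called by the same test. The interaction was 0.79 for Itgav (adjusted p = 0.00144) and 0.63 for Itgb2 (adjusted p = 0.000118). Every HS + LPS array of Itgav (1.48, 1.26 and 1.58) lay above every array of the other groups. For Itgb2 the salt difference was -0.53 without LPS and 0.10 with it. Single probes gave 0.98 for A_51_P382484 of Itgav (adjusted p = 4.16e-05) and 0.83 for A_55_P1977929 of Itgam (adjusted p = 4e-05), where the brightest Itgam probe gave 0.06 (adjusted p = 0.483).

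Of the other subunits, Itgb4 gave 1.22 (adjusted p = 0.00072), Itga10 0.93 (adjusted p = 4.16e-05), Itga7 0.52 (adjusted p = 0.00478) and Itgb5 0.42 (adjusted p = 0.00235). All 8 values are positive, but each is listed because it was called, and Itgav enters by both its probes. Estimates that were not called, some of them negative, are not among them. All 8 rest on the HS + LPS arrays, which share a slide that no other group used, so the interaction cannot be told apart from that slide. Single arrays that stand apart were not looked for by a test within groups of 3.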

How the results depend on the processing

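Counts of genes and of members called kept their size, within 1.5 times, under each alternative run. With single arrays left out, 3846 to 5080 genes were called for salt without LPS, 7010 to 7932 for salt with LPS, 8091 to 8745 for LPS without added salt, 9387 to 9914 for LPS in high salt and 4122 to 4738 for the interaction. Members called were 9, 9, 10 and 10 in the 4 pairs of groups each time, and 2 to 3 for the interaction. Of 1070 further values for single members, 1037 kept direction and call, 26 changed sign, 6 gained a call and 1 lost it.

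Most sign changes were of values near 0, and their cause was not tested. Itgav between HS and NS, 8e-04 in the main setting, became -0.0189 with cyclic loess, -0.0316 with the deposited table and -0.1212 with the mean of probes, and lay between -0.0591 and 0.0786 with single arrays left out. The interaction became 0.0396 for Itga4 with the deposited table, and -0.0534 for Itga5 and -0.0123 for Itgb7 with normexp. For Itgb1 it became 0.0205 with normexp, 0.0162 with the deposited table and 0.103 with the mean of probes. With single arrays left out it lay between -0.0851 and 0.0181 for Itga4, -0.0491 and 0.0364 for Itgb1, and -0.0274 and 0.1108 for Itgb7. Itgb2 between HS + LPS and NS + LPS became -0.0058 with normexp, and was called with the deposited table (0.15, adjusted p = 0.0347).

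Averaging probes turned Itgam between HS and NS to -0.1755 (adjusted p = 0.0407), called its interaction (0.46, adjusted p = 0.00231) and ended the call of Itgav for LPS without added salt (adjusted p = 0.165). For Itgam with salt alone and Itgav the probes differ in direction, and for the Itgam interaction in size only. It also moved the LPS differences without and with added salt to 1.79 and 1.44 for Itga6 and 0.86 and 1.32 for Itgam, and that without added salt to 0.26 for Itgb1. The Itgax interaction, not called at -0.37, lay between -0.0179 (normexp, adjusted p = 0.912) and -0.4965 over all settings. It was called with quantile normalization, without HS replicate 3 (-0.50, adjusted p = 0.00391), with the filter on all 12 arrays (adjusted p = 0.0414) and with the replicate block (adjusted p = 0.0363).

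Arrays with the same replicate number did not deviate together (correlations of -0.2 to 0.122), which does not settle whether those samples shared a culture or batch. With the replicate block 4670 of 13664 genes were called for salt without LPS. For the interaction 4561 genes were called, and 3 of the 10 members. A random slide block, with an estimated correlation of -0.0165, changed no member's call. It cannot check the comparisons with HS + LPS or the interaction, because that group lies on a slide of its own. On the shared slide alone, which allows only NS, HS and NS + LPS without replicate 3, 9 and 10 members were called for salt and for LPS. Of the 13664 genes, 4811 and 8267 were called there. Dim probes limit the rest: 13 further subunits could not be compared.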
